A study of Mus musculus with 9 samples.

Results

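The tricarboxylic acid (TCA) cycle oxidises acetyl-CoA in the mitochondrial matrix. Pyruvate enters it as acetyl-CoA through pyruvate dehydrogenase or as oxaloacetate through pyruvate carboxylase, and glutamate enters it through glutamate dehydrogenase. In fat cells citrate made by citrate synthase can leave the mitochondrion and be cleaved to cytosolic acetyl-CoA, which feeds fatty acid synthesis and is the acetyl donor of histone acetyltransferases. Acetylation of histones H3 and H2B typically marks active promoters and enhancers, and HDAC3 is a histone deacetylase that removes acetyl groups.

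The genes described here are 9 named members of these routes: Pcx (pyruvate carboxylase), Pdha1 (the alpha subunit of pyruvate dehydrogenase), Cs (citrate synthase), Idh3a and Idh3b (the catalytic alpha and the beta subunit of NAD-dependent isocitrate dehydrogenase), Ogdh (the first enzyme of the oxoglutarate dehydrogenase complex), Sucla2 (the beta subunit of the ADP-forming succinyl-CoA ligase), Fh1 (fumarate hydratase) and Glud1 (glutamate dehydrogenase). They were chosen by name, as 9 of 21627 protein-coding genes, and each was given the listed regions that touched the annotated gene or the 1 kb beyond either end. This gave 66 regions over the 9 libraries. Idh3a and Idh3b encode subunits of one enzyme, and the other members act at different steps.

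Chromatin immunoprecipitation and sequencing (ChIP-seq) was applied to 3T3-L1, an established mouse cell line of preadipocytes, widely used to follow fat cell formation in culture. Per the labels, the cells received a negative control siRNA (siControl), siME1 or siME2, were induced to become adipocytes 2 days afterwards, and were fixed in 1% formaldehyde another 7 days later, so that all groups shared transfection, induction and fixation. ME1 and ME2 are the symbols of malic enzymes, which turn malate into pyruvate. Antibodies were against acetylated H3 (AcH3), acetylated H2B (AcH2B) and HDAC3, with sheared fragments of about 200 to 1000 bp. Each of the 9 combinations of antibody and siRNA was 1 library, so no difference below has a replicate check and none was tested. The labels give the cell type as preadipocyte although the protocol describes differentiation, and the HDAC3 libraries carry H3 in their titles, where the antibody label was followed.

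The values are the authors' own peak calls. A region is a stretch listed in a library, its summit is the position of highest coverage, and its fold is the deposited enrichment at the summit, (coverage + 1)/(local background + 1). Where a gene had several regions, the one with the highest deposited −log10 p stands for it. The AcH3 lists held 21995, 34799 and 28415 regions in siControl, siME1 and siME2, the AcH2B lists 20046, 54649 and 32465, and the HDAC3 lists 4614, 5202 and 1597. A gene without a region is one at which nothing passed the authors' limit in that library, which need not mean that acetylation was absent. The weakest listed summits rested on 8 to 11 fragments in the acetylated histone libraries and on 5 or 6 in the HDAC3 libraries. As a check of the labelled cell type, AcH3 regions lay at 4, 4 and 5 of 10 adipocyte genes in siControl, siME1 and siME2, and at 9, 9 and 10 of 10 preadipocyte or fibroblast genes. Lpl, Pparg, Cebpa and Lipe had AcH3 regions in each of the 3 libraries, whereas Adipoq, Plin1, Cidec, Adig and Cd36 had none in any AcH3 or AcH2B library. Of 5 genes each, hepatocyte and muscle lists had 0 with a region in these 6 libraries, the leukocyte list 0 or 1 and the neuron list 1 or 2. Cells of different stages cannot be told apart in bulk chromatin, and their part in the results was not tested.

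All 9 genes carried an AcH3 region in siControl, where 53.1% of protein-coding genes did. All 9 were still listed in siME1 (49.3% of genes) and 4 in siME2 (32.2%): Pcx, Pdha1, Cs and Glud1. AcH2B ran the other way. It was listed at Pcx and Glud1 in siControl (16.6% of genes), and at these 2 plus Pdha1, Cs and Idh3b in siME1 (39.7%) and in siME2 (34.7%). These shares are over all protein-coding genes, including those without AcH3. Idh3a, Ogdh, Sucla2 and Fh1 had no AcH2B region in any library. HDAC3 was listed at Pcx and Ogdh in siControl (9.58%), at Ogdh in siME1 (9.19%) and at no member in siME2 (3.84%).

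**Figure D1:**
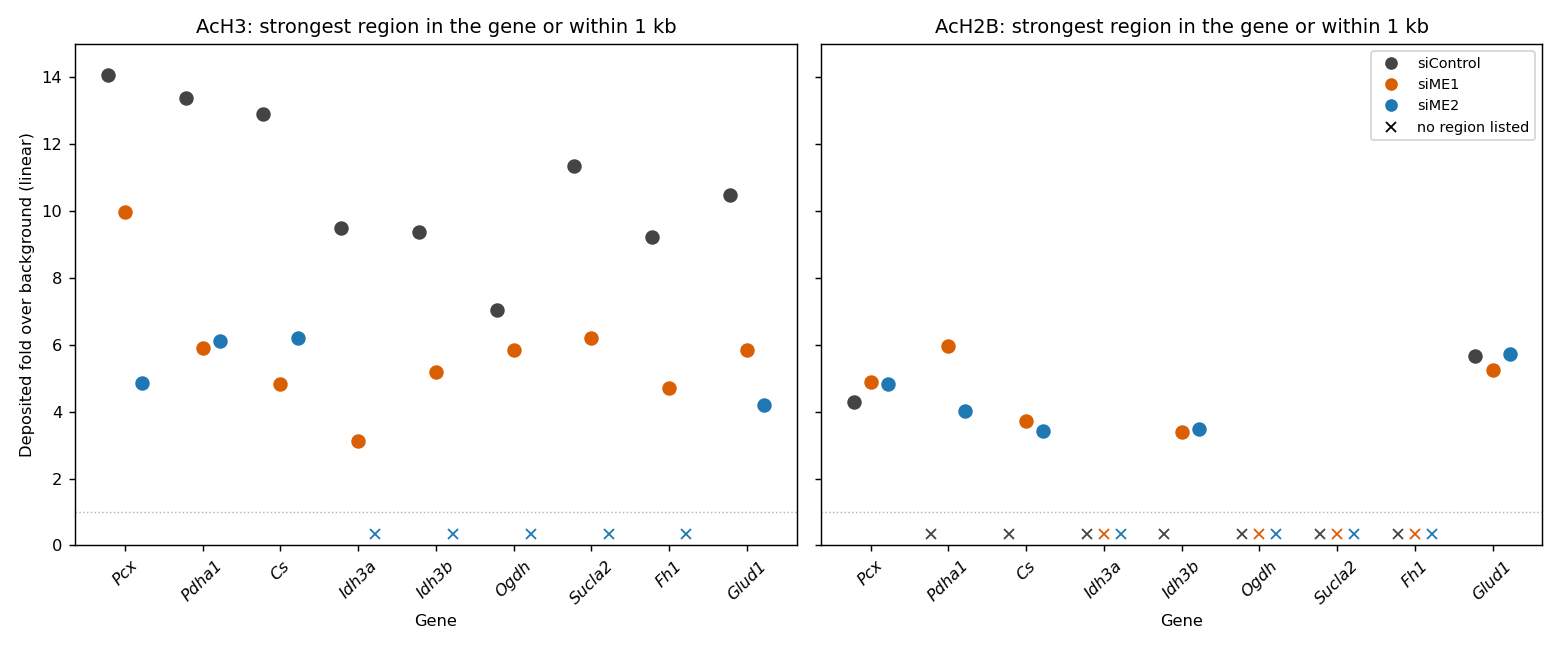
Deposited fold over background of the strongest region of each of the 9 genes in the AcH3 (left) and AcH2B (right) libraries, with colours for siControl, siME1 and siME2 and 1 library per point, on a linear axis; a cross marks a gene with no listed region and the dotted line a fold of 1. AcH3 folds in siControl ranged from 7.06 at Ogdh to 14.1 at Pcx, and all 13 AcH3 points of the knockdowns lie below the siControl point of the same gene.

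The promoter sequences below, from the RefSeq promoter table of GRCm38.p6, cover the DNA just upstream of the first annotated starts. Each is the 250 bases before the first annotated start, 5′ to 3′ on the gene's strand. Capitals mark CCAAT (or its complement ATTGG) and the GC box GGGCGG (or CCGCCC). Pdha1 (chrX:160138431-160138680, minus strand) and Cs (chr10:128337477-128337726, plus strand) are shown because the AcH3 region at the start was listed in siControl, siME1 and siME2 and AcH2B in both knockdowns. Sucla2 (chr14:73552536-73552785, plus strand) and Fh1 (chr1:175625636-175625885, minus strand) had no AcH3 region in siME2. Pcx (chr19:4510222-4510471, plus strand) had a region at its own start in the AcH3 siControl library alone.
Pdha1: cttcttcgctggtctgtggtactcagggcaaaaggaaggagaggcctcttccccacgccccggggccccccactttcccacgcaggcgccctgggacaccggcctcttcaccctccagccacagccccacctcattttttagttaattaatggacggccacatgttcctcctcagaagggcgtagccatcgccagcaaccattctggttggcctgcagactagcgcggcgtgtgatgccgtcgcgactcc
Cs: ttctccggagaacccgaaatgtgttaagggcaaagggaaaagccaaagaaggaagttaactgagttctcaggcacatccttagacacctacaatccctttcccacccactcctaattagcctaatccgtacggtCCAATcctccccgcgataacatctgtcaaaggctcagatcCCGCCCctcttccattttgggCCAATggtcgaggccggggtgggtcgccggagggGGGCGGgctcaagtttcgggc
Sucla2: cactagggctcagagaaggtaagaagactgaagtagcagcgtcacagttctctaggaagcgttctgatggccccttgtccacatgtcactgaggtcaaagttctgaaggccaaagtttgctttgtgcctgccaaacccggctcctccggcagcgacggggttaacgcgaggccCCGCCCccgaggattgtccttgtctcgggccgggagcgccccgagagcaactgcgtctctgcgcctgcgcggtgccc
Fh1: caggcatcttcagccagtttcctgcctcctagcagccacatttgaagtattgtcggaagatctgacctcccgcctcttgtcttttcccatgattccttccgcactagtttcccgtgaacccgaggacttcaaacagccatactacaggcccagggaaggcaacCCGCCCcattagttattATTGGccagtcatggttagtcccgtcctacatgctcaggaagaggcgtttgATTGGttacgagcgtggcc
Pcx: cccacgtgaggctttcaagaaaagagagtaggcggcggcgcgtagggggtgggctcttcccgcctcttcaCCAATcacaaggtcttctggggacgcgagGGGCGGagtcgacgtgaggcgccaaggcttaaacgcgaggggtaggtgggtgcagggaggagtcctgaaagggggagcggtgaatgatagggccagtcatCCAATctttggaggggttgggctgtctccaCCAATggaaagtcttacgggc

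Of the 9 genes, 8 had a promoter window and Idh3a had none. The first-start windows of the 8 genes held 46.8% to 82.0% G or C with a median of 59.0%, against a median of 52.4% over 32851 RefSeq windows. They held 10 to 46 CpG with a median of 15.5, against 6 over all windows. The 32851 windows include later starts of genes and genes without AcH3. Those of the 8 genes are first starts of genes with AcH3 in siControl, so the 2 sets are not alike in kind. Both strands were searched for short motifs. The GC box GGGCGG occurred in 5 of 8 (Pcx, Cs, Sucla2, Fh1 and Glud1) and in 32.7% of all windows, and CCAAT in 5 of 8 (Pcx, Cs, Idh3b, Ogdh and Fh1) and in 33.8%. The NRF1 palindrome (GCGC, then AT, then GCGC) was in 0 of 8 (0.782% of all windows), and its looser form with NN in place of AT, which includes it, was in Sucla2 alone (4.98%). CCGGAAG, bound by ETS factors, was in Glud1 alone (6.91%), and the E-box CACGTG in Pcx alone (6.02%). AAGATGGC, the YY1 motif, and AAGGTCA, the ERR motif, were in 0 of 8 (1.56% and 4.08%). These matches describe the letters only. Cs, with AcH3 kept in siME2, and Fh1, without it there, both held CCAAT and GC boxes, whereas Pdha1, with AcH3 kept in siME2, held neither.

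Pyruvate enters the cycle through the products of Pdha1 and Pcx. Pdha1 (chrX:160122219-160138430, minus strand, GRCm38) had AcH3 across its start, with a fold of 13.4 in siControl against 5.92 after siME1 and 6.12 after siME2. The summits held 36, 19 and 18 fragments, with exact 95% Poisson intervals of 25.2 to 49.8, 11.4 to 29.7 and 10.7 to 28.5 that cover counting error only. The siControl count thus lay above both knockdown counts, with some overlap of the intervals. None of these counts was scaled for library depth, which is unknown here. The siControl region ran from 160137508 to 160139106, across the whole sequence printed above, and a weaker one (fold 5.79) had its summit 1.63 kb after the start. AcH2B was not listed there in siControl, and had a fold of 5.97 in siME1, with its summit 194 bp after the start, and of 4.02 in siME2, with its summit 590 bp before it. A weaker siME1 region (fold 4.27, summit 467 bp before the start) overlapped the siME2 region. The far end of Pdha1 overlaps Map3k15 by 1128 bp, but every Pdha1 region lay near its start.

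Pcx (chr19:4510472-4621752, plus strand) is the longest of the members and showed the most scattered pattern. Its own first start, just downstream of the sequence above, had AcH3 in siControl with a fold of 6.35 and 23 fragments at the summit (region 4510639 to 4511167, summit 424 bp after the start). Neither knockdown listed a region there for either histone, and its second annotated start, at 4594319, had none in any library. The strongest AcH3 region of the Pcx window lay instead at the start of Lrfn4 (4615667), a gene on the opposite strand inside the Pcx span. The folds there were 14.1 in siControl, 9.98 after siME1 and 4.87 after siME2, from 43, 38 and 16 fragments. These values therefore cannot be assigned to Pcx rather than to Lrfn4. Elsewhere in Pcx, AcH3 was listed 10.7 kb after the first start in siControl with a fold of 3.80, at 5.85 kb in siME1 with a fold of 4.20 and at 7.60 kb in siME2 with a fold of 3.68, so no AcH3 position was shared between these libraries. Away from the Lrfn4 start, the siME1 list held AcH2B at 5.04 kb after the first start with a fold of 4.89 and at 6.61 kb with 2.41. It also held AcH2B at 10.6 kb with a fold of 3.08 and at 48.2 kb with a fold of 3.60. The siME2 list held it at 48.6 kb with a fold of 4.53. AcH3 in siME2 was listed at the same 48.6 kb position with a fold of 3.52. In siControl the AcH2B list held no region in Pcx apart from the one at the Lrfn4 start, with a fold of 4.28. The AcH2B region covering the Lrfn4 start had a fold of 5.17 in siME1 and 4.83 in siME2.

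Cs (chr10:128337727-128362482, plus strand) had a single AcH3 region in each AcH3 library, at its start. Its fold was 12.9 in siControl, 4.83 after siME1 and 6.20 after siME2, from 39, 20 and 21 fragments. The interval of the siControl count, 27.7 to 53.3, lay above both knockdown counts, again without scaling for library depth. It overlapped in part the intervals of those counts, 12.2 to 30.9 in siME1 and 13.0 to 32.1 in siME2. The region narrowed from 1767 bp in siControl to 836 bp in siME1 and 333 bp in siME2, while its summit stayed 481 to 554 bp after the start. AcH2B was absent from the siControl list. In siME1 it had a fold of 3.27 at the start and 3.71 at 7.31 kb into the gene, and in siME2 a fold of 3.42 with the summit 432 bp before the start, upstream of the sequence printed above. Of the 1446 genes, 6.69% of all, that shared the pattern of listed libraries of Cs and Pdha1, the 3 outside the pathway with folds most like those of Cs were Elp6, Preb and Prr11. Their mean absolute differences from Cs in log2 fold over 5 libraries were 0.10, 0.13 and 0.15.

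**Figure D2:**
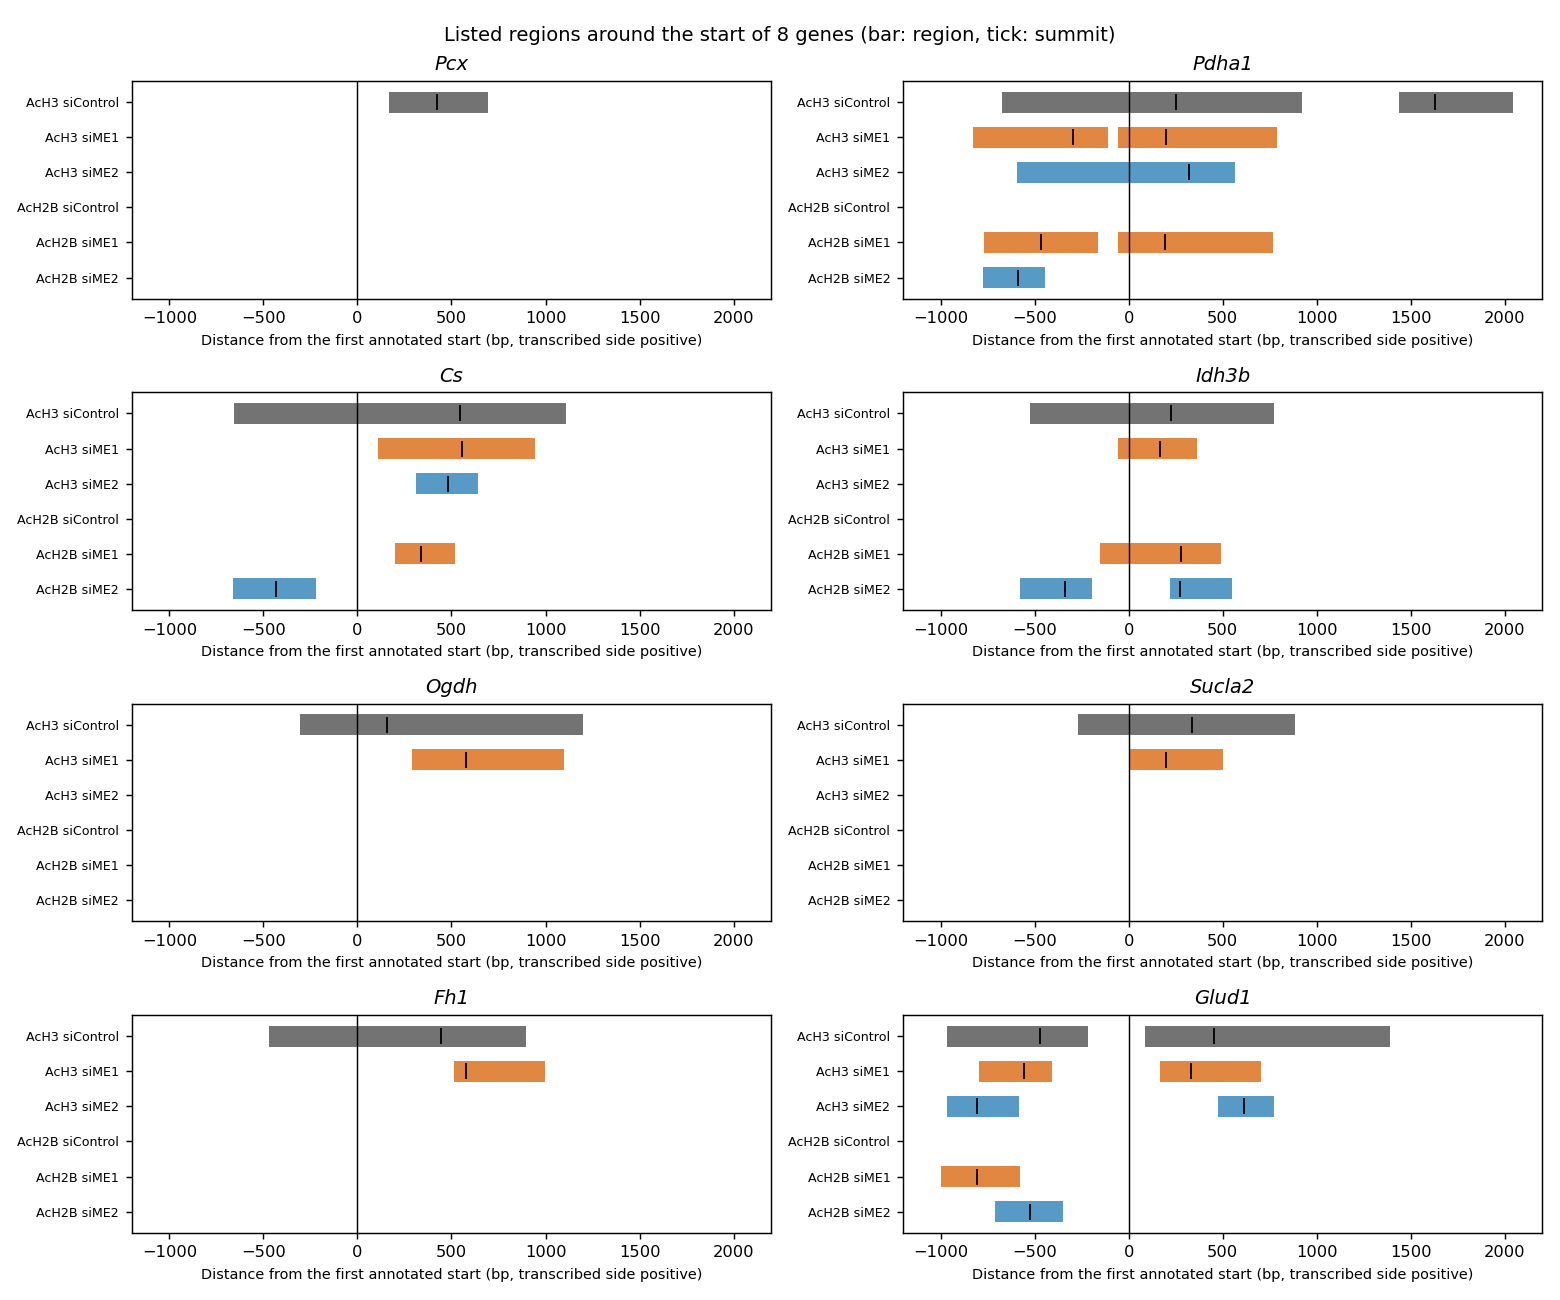
Position of the listed AcH3 and AcH2B regions around the first annotated start of the genes, as distance from the start in bp in the direction of transcription, with 1 row of bars per library and ticks at the summits. The AcH3 regions of siControl span the start at most genes and are shorter in siME1 and siME2, and the summit of the strongest AcH2B region of siME2 lies before the start at Pdha1, Cs, Idh3b and Glud1, with a weaker one after the start at Idh3b.

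The 2 isocitrate dehydrogenase subunits differed in AcH2B. At Idh3a (chr9:54586511-54604662) the AcH3 fold was 9.50 in siControl from 34 fragments and 3.11 in siME1 from 11 fragments. No region was listed in siME2, and no AcH2B region was listed in any library. The siME1 region of Idh3a was the weakest of the members, above only 1.65% of the genes with a region in that library. At Idh3b (chr2:130279309-130284451, minus strand) the AcH3 fold was 9.39 in siControl from 42 fragments and 5.20 in siME1 from 28 fragments, with none in siME2. AcH2B appeared in siME1 with a fold of 3.40 at 279 bp after the start, with a local background of 6.00 (library median 3.00). In siME2 it appeared as 2 regions, one with its summit 338 bp before the start and a fold of 3.48, the other 274 bp after it and a fold of 2.43. The local background of the latter was 8.00, against a median of 2.92 over that library's regions.

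Ogdh, Sucla2 and Fh1, which act at later steps of the cycle, shared a pattern of AcH3 in siControl and siME1 and none in siME2. Idh3a and Idh3b, at an earlier step, had the same AcH3 pattern. At Ogdh (chr11:6291597-6359094, plus strand) the AcH3 fold was 7.06 in siControl and 5.83 in siME1, from 25 and 20 fragments. The intervals, 16.2 to 36.9 and 12.2 to 30.9, overlapped over most of their length. At Sucla2 (chr14:73552786-73596144, plus strand) the fold was 11.3 and 6.21, from 31 and 20 fragments. At Fh1 (chr1:175601378-175625635, minus strand) it was 9.23 and 4.70, from 33 and 21 fragments. Ogdh was also listed with HDAC3, 1.19 kb after the first start in siControl (fold 2.70, 5 fragments) and 36.1 kb after it in siME1 (fold 2.92, 6 fragments). Both had a deposited q of 1, as did the HDAC3 region at 38.1 kb in Pcx in siControl (fold 2.72, 7 fragments). The patterns of Idh3a, Sucla2 and Fh1 were the same and were shared by 1253 genes, 5.79% of all.

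Glud1 (chr14:34310727-34345033, plus strand), through which glutamate enters the cycle, lies head to head with Shld2, whose start is 76 bp away on the other strand. Regions at that shared stretch cannot be assigned to one of the genes. Each AcH3 library listed a region on either side of the Glud1 start. On the Glud1 side the fold was 10.5 in siControl, with the summit 452 bp after the start, 5.22 after siME1 and 3.38 after siME2. On the Shld2 side it was 5.97, 5.83 and 4.19, with summits 472 bp, 558 bp and 808 bp before the start. The siME1 fold was thus lower than siControl on the Glud1 side and nearly equal to it on the Shld2 side. The strongest region lay on the Glud1 side in siControl and on the Shld2 side in both knockdowns. Inside the gene, 6.58 to 7.98 kb after the start, AcH2B was listed in all 3 AcH2B libraries, with the highest fold of that stretch at 5.65 in siControl, 5.25 after siME1 and 5.15 after siME2. AcH3 was listed there in siME1 alone, with folds of 4.32 and 3.46. Apart from the Pcx region at the Lrfn4 start, this was the only AcH2B region of the members in siControl. On the Shld2 side of the start, AcH2B had a fold of 3.30 in siME1 and 5.72 in siME2. It was not listed there in siControl.

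**Figure D3:**
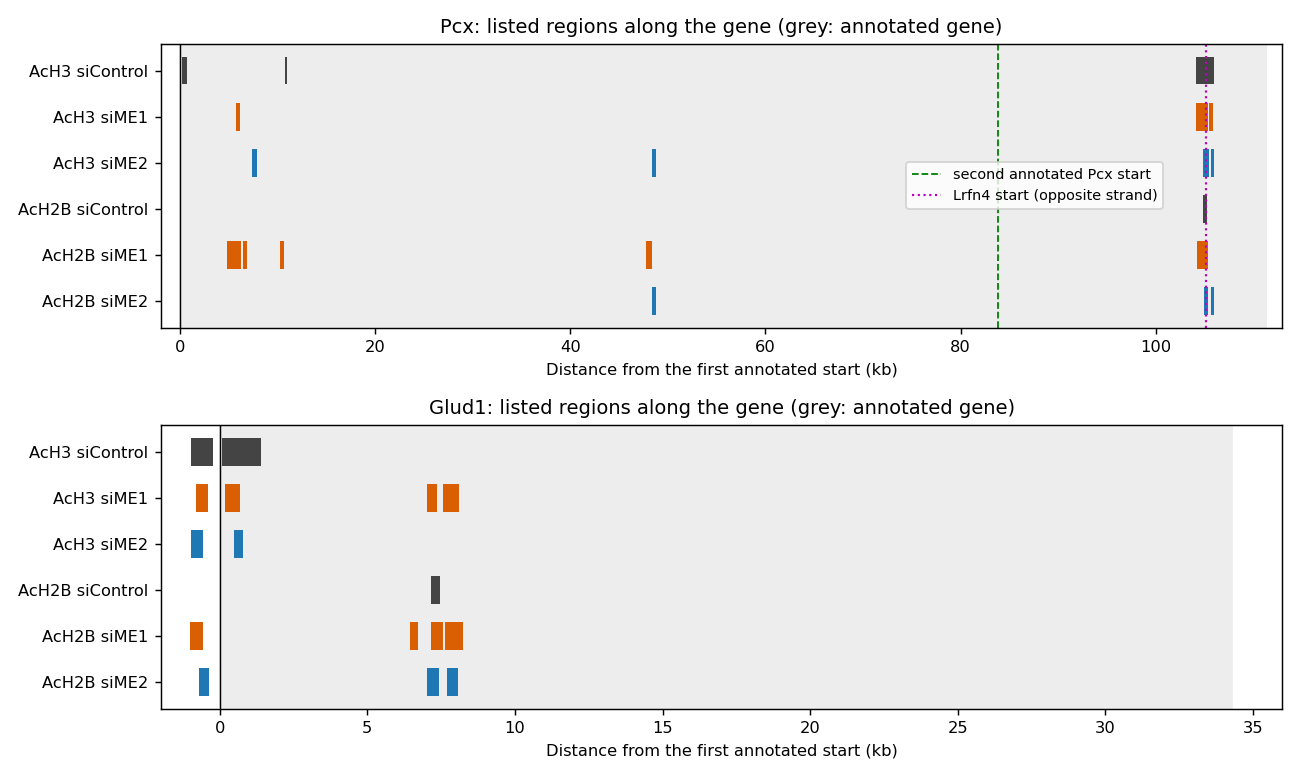
Listed AcH3 and AcH2B regions (bars) along Pcx and Glud1 as distance from the first annotated start in kb, with 1 row per library, the annotated gene in grey, and lines at the second Pcx start and the Lrfn4 start. Every AcH3 and AcH2B library has a region at the Lrfn4 start, the siControl AcH3 library alone has one at the Pcx start, and Glud1 has AcH2B summits 6.58 to 7.98 kb into the gene in all 3 AcH2B libraries.

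Against siControl, 5 of the 9 genes had no AcH3 region in siME2 (Idh3a, Idh3b, Ogdh, Sucla2 and Fh1), where 43.5% of genes with a siControl region had none. In siME1 it was 0 of 9 against 11.8%. The members' median AcH3 fold in siControl was 10.5 against 9.59 over all genes with a region, and the comparison was therefore repeated among the 8421 genes whose siControl −log10 p was at least that of Ogdh, the weakest member. Of these, 3.81% had no region in siME1 and 36.3% in siME2. The share of the members without AcH3 in siME2 was thus somewhat above that of all genes, and 9 genes do not fix such a share closely. AcH2B was gained at 3 of 7 genes in siME1 (28.2% of genes) and at the same 3, Pdha1, Cs and Idh3b, in siME2 (23.4%), so at 3 of 7 in both (17.3%). These shares include genes without AcH3, whereas all 9 members had AcH3 in siControl. Among genes with AcH3, AcH2B was also listed at 3269 of 11489 in siControl, 7805 of 10657 in siME1 and 5479 of 6954 in siME2. For the members it was 2 of 9, 5 of 9 and 4 of 4. The 3 of 7 therefore cannot be read as an excess over genes like the members. No AcH2B region was lost (0 of 2, against 2.65% in siME1 and 8.75% in siME2). These gains depended on weak regions. When each AcH2B list was cut to the strongest 20046 regions, only Pdha1 gained one in siME1 (1 of 7, against 11.1% of genes) and none did in siME2 (0 of 7, against 16.0%). AcH2B was then listed at 16.6%, 23.4% and 27.1% of all genes in siControl, siME1 and siME2.

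**Figure D4:**
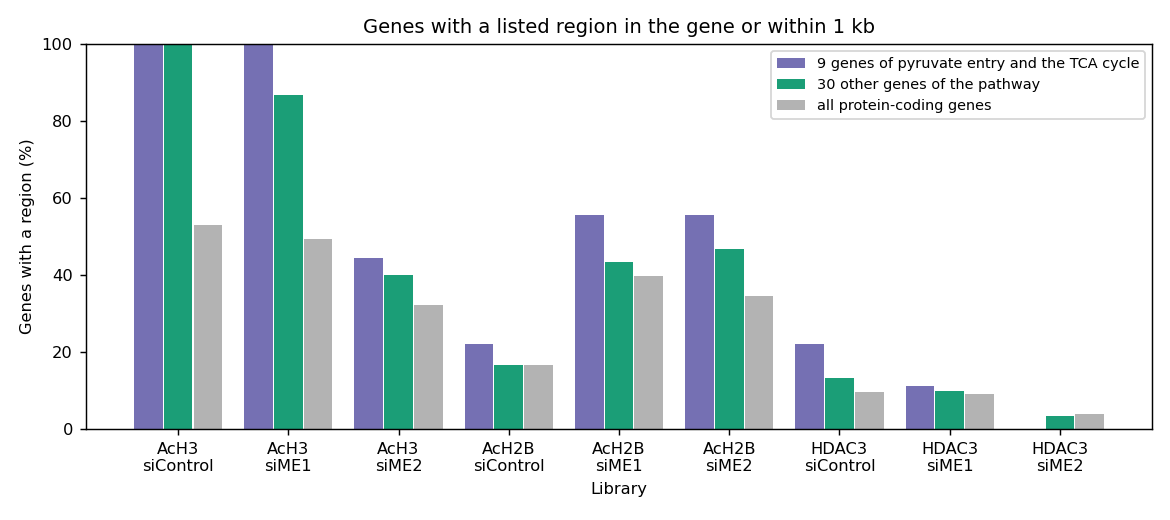
Percentage of the 9 genes, of the 30 other pathway genes and of all 21627 protein-coding genes with a listed region in each of the 9 libraries, as bars from 0. For AcH3 the 9 genes go from 9 and 9 listed in siControl and siME1 to 4 in siME2, and for AcH2B from 2 in siControl to 5 in each knockdown.

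Where a region was listed in both libraries, its AcH3 fold was lower in the knockdown for every member. In siME1 the fold of the strongest region was at least 1.5 times lower at 7 of 9, all but Pcx and Ogdh, against 60.1% of genes, and at least 1.5 times higher at 0 of 9 against 1.35%. In siME2 it was at least 1.5 times lower at 4 of 4 against 77.8%, and higher at 0 of 4 against 1.71%. The log2 ratios of siME1 to siControl ran from −0.27 at Ogdh to −1.61 at Idh3a, with a median of −0.87 against −0.71 over 10133 genes and −0.77 over 26 other pathway genes. The counting standard error of one ratio was 0.32 to 0.50, so that the differences between neighbouring members lay within counting error. In siME2 the ratios were −1.53 at Pcx (at the Lrfn4 start), −1.13 at Pdha1, −1.06 at Cs and −1.33 at Glud1, with a median of −1.23 against −1.10 over 6488 genes and −1.03 over 12 pathway genes. These medians cover the genes still listed, and leave out the 5 members without a siME2 region. The lower AcH3 folds moved with the whole library, where 91.1% of genes in siME1 and 93.1% in siME2 had a lower fold than in siControl. At Glud1 the ratio sets the Shld2 side in the knockdowns against the Glud1 side in siControl. Both knockdowns were compared with the same siControl library.

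**Figure D5:**
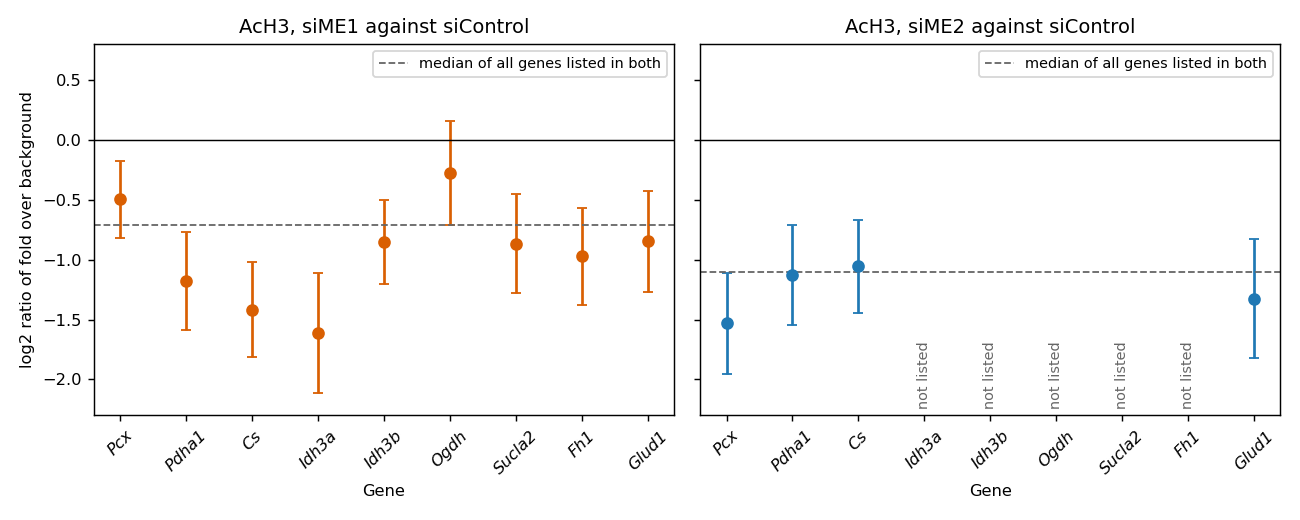
Log2 ratio of the AcH3 fold, knockdown over siControl, for each gene listed in both libraries, with error bars of 1 counting standard error, a solid line at no difference and dashed lines at the medians over all genes listed in both. The 9 siME1 points lie between −1.61 and −0.27 and the 4 siME2 points between −1.53 and −1.06.

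AcH2B folds could be compared at Pcx and Glud1 alone. At Pcx they were 4.28, 4.89 and 4.83 in siControl, siME1 and siME2, and at Glud1 5.65, 5.25 and 5.72, from regions that were not the same stretch in each library. At Pcx the siControl and siME2 values came from the Lrfn4 start, where the siME1 fold was 5.17. None was 1.5 times higher in a knockdown (0 of 2, against 31.1% of genes in siME1 and 15.9% in siME2), and each log2 ratio to siControl was smaller than its counting standard error.

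At the members, listed length showed the same opposite directions. Over the whole lists, AcH3 covered 20.6 Mb in siControl, 23.7 Mb in siME1 and 16.2 Mb in siME2, so its total was higher in siME1. The AcH2B lists covered 12.6, 41.7 and 21.2 Mb. The AcH3-covered length was lower than in siControl at 9 of 9 genes in siME1 and at 9 of 9 in siME2. Among the 11489 genes with a siControl AcH3 region it was lower at 82.4% in siME1 and 91.1% in siME2. At Pdha1 it was 2211, 1565 and 1161 bp in siControl, siME1 and siME2, and at Idh3b 1296, 421 and 0 bp. The AcH2B-covered length was higher at 5 of 9 in siME1 (39.0% of all genes, with or without AcH3) and at 5 of 9 in siME2 (31.5%). At Pdha1 it was 0, 1432 and 329 bp, and at Glud1 304, 1718 and 1135 bp. Lower AcH3 with higher AcH2B in both knockdowns held for 5 of 9, namely Pcx, Pdha1, Cs, Idh3b and Glud1. It held for 31.3% of genes with a siControl AcH3 region. An AcH3 region overlapped an AcH2B region at 1 of the 9 genes in siControl (12.9% of all genes), at 5 in siME1 (33.6%) and at 3 in siME2 (22.0%). Many of all genes had no AcH3 region and could not qualify. Among genes with AcH3 the overlap was found at 2797 of 11489, 7256 of 10657 and 4759 of 6954. For the members it was 1 of 9, 5 of 9 and 3 of 4, so no excess over such genes can be read from them.

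At the genes' own annotated starts, taken with 1 kb to either side, 8 genes could be followed. This window sets aside Lrfn4 and regions deep inside genes, and was chosen after the data were seen. At Glud1 it still takes in the start of Shld2. AcH3 was listed at 8, 7 and 3 of the 8 genes in siControl, siME1 and siME2 (49.9%, 44.0% and 24.7% of 17273 genes), and AcH2B at 0, 4 and 4 (9.58%, 30.7% and 26.1%). Among genes with AcH3 there, AcH2B was also listed at 1582 of 8622, 4979 of 7599 and 3031 of 4272. For the members it was 0 of 8, 4 of 7 and 3 of 3. Of the 8, 5 were without AcH3 in siME2, namely Pcx, Idh3b, Ogdh, Sucla2 and Fh1 (51.5%), and 1 in siME1 (13.3%). HDAC3 was listed at Ogdh alone in siControl (4.65%), and at none in siME1 (2.85%) or siME2 (1.93%). Pcx was then the member without AcH3 in either knockdown (1 of 8, against 12.3%). Pdha1, Cs, Idh3b and Glud1 gained AcH2B in both (4 of 8, against 14.0%). That 14.0% includes genes without AcH3 at the start, whereas all 8 had it in siControl. The 4 of 8 therefore cannot be read as an excess over genes like the members. The gained Glud1 regions lay wholly on the Shld2 side, with summits 805 bp before the Glud1 start in siME1 and 522 bp in siME2. The AcH3 regions at these starts had median widths of 1336.5, 491 and 384 bp in siControl, siME1 and siME2, against 1327.5, 763 and 482 bp over all genes. Their summits in siControl lay after the start at 8 of 8 genes, by 157 to 545 bp, and at 81.4% of all genes. Counting the strongest region per gene, the AcH2B summit lay after the start at 3 of 4 in siME1 (56.9% of all genes) and before it at 4 of 4 in siME2 (57.2%). Weaker AcH2B regions lay on the other side at Pdha1 in siME1 and at Idh3b in siME2.

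The other genes of the pathway, 30 named enzymes, subunits, kinases, phosphatases and carriers, gave a similar picture. AcH3 was listed at 30 in siControl, 26 in siME1 and 12 in siME2, against 53.1%, 49.3% and 32.2% of all genes. AcH2B was listed at 5, 13 and 14, against 16.6%, 39.7% and 34.7%. HDAC3 was listed at 4, 3 and 1, against 9.58%, 9.19% and 3.84%. Of these 30, 4 had AcH3 in siControl and in neither knockdown (10.5% of genes with a siControl AcH3 region). They were Pdhb, the beta subunit of pyruvate dehydrogenase (siControl fold 11.0), Sdhb, the iron-sulfur subunit of succinate dehydrogenase (8.96), Aldh5a1, succinate semialdehyde dehydrogenase (5.48), and Ogdhl. Pdha1 and Pdhb encode the subunits that form one enzyme, and AcH3 was listed in both knockdowns at Pdha1 and in neither at Pdhb. AcH2B was gained in both knockdowns at 5 of 25 (17.3%): Idh2, Suclg2, Sdhc, Mpc1 and Suclg1. At Idh2, the mitochondrial NADP-dependent isocitrate dehydrogenase, the AcH2B fold was 5.82 after siME1 and 5.72 after siME2, and the AcH3 fold was 12.7 in siControl, 5.79 after siME1 and 6.76 after siME2. At Suclg2, the GTP-forming counterpart of Sucla2, the AcH2B folds were 4.83 and 3.52, while Sucla2 itself had no AcH2B region. At Sdhc they were 4.92 and 4.03.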

How the data were processed

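Per the submitters' processing notes, BWA, SAMtools, MACS2, bedtools and deepTools were used, with build mm8. Versions, parameters and control libraries were not given in the sources used here. Regions were read as GRCm38, from the scaffold names in the files and from the position of gene starts: 46.8% of the AcH3 siControl regions lay near an annotated start, against 5.0% after a shift of 50 kb.

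The authors deposited 1 peak table per library. It gives a pileup signal (coverage at the summit), a −log10 p, a −log10 q and a fold, which is a ratio of coverage to local background, as deposited values per summit. All acetylated histone regions passed a deposited −log10 q of about 1.3, and 91.9%, 97.6% and 95.9% of the HDAC3 regions of siControl, siME1 and siME2 lay under it, so the lists were limited differently. The coverage values were whole multiples of 1 step per library (0.871 to 1.0), from which fragments at the summit were counted, with exact Poisson 95% intervals. Read totals per library are unknown here.

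Genes, ends and neighbours came from the RefSeq gene table of GRCm38.p6, which has no exons, so exons and introns were not told apart. Strands and starts came from the RefSeq promoter windows, which covered 17273 genes. A region belonged to a gene when it overlapped the gene or 1 kb to either side by at least 1 bp. All 9 members were named. Of the other pathway genes, values were given for the 3 with the highest siControl AcH3 −log10 p among those without AcH3 in both knockdowns, and the 3 with the highest siME1 AcH2B −log10 p among those that gained AcH2B in both. Genes most like Cs had the same libraries listed and the smallest mean difference in log2 fold. The other pathway genes named were chosen after their values were seen. The members and lists were chosen with earlier results of these data known. Groups followed the siRNA and antibody labels, with 1 library each, and no test was made. Alternatives were the window, the flank, the score limit, the number of regions and the measure. Scripts were checked on simulated regions and ran in Python 3.11.15 with numpy 2.4.6, pandas 2.3.3, scipy 1.17.1 and matplotlib 3.10.9.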

Additional observations from a re-analysis of the deposited data

Results flagged for a closer look

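At 5 of the 9 genes the length covered by listed AcH3 regions was lower than in siControl in both knockdowns while the length covered by AcH2B regions was higher, as at 31.3% of all genes with a siControl AcH3 region. With 1 library per group the difference between the histones was not tested. The AcH2B change minus the AcH3 change in siME1 and siME2 was 4139 and 1667 bp at Pcx, 2078 and 1379 bp at Pdha1, 1625 and 1877 bp at Cs, 1515 and 2010 bp at Idh3b, and 1692 and 2198 bp at Glud1. Part of the covered length at Pcx lay at the start of Lrfn4, and part of that at Glud1 at the start of Shld2. The AcH2B list of siME1 held 54649 regions and that of siME2 32465, against 20046 in siControl. With each list limited to its strongest 20046 regions, AcH2B was listed in siME1 at Pcx, Pdha1 and Glud1 and in siME2 at Pcx and Glud1. Cs and Idh3b then had no AcH2B region in either knockdown and Pdha1 none in siME2, so that at 3 of the 5 genes AcH2B was no longer higher in both.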

How the results depend on the processing

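No paired analysis was possible because each combination of antibody and siRNA had 1 library, and for the same reason no library could be left out. Of 245 values under alternatives, the AcH3 counts per library and the number of genes without AcH3 in siME2, 5 or 6, stayed within 1.5 times of the reported count. Idh3b, Ogdh, Sucla2 and Fh1 were among the latter in every setting. Pcx joined them at gene ends and own starts, and Glud1 under the stricter score limit. Idh3a could not be followed at own starts. With equal numbers of regions per antibody, AcH3 was missing in siME1 at 1 gene (Idh3a; 20.7% of genes) in place of 0, and AcH2B was listed at 3 genes in siME1 (23.4%) and 2 in siME2 (27.1%) in place of 5 and 5. Its gains were 1 (11.1%) and 0 (16.0%) in place of 3 and 3, and HDAC3 was listed at 0 genes in siControl (3.91%) and 0 in siME1 (3.36%) in place of 2 and 1. With the stricter score limit, the AcH3 count missing in siME1 was 1 (Idh3a, 24.4%). AcH2B was listed at 1 gene in siControl (9.27%), 3 in siME1 (24.7%) and 2 in siME2 (19.6%). Its gains were 2 in siME1 (Pcx and Pdha1, 17.5%) and 1 in siME2 (Pcx, 13.1%), so those of Cs and Idh3b were not kept. Pcx counted as gained because its siControl region, at the Lrfn4 start, fell under that limit. HDAC3 was listed at 0 in siControl (0.902%) and 0 in siME1 (0.282%). Without flanks AcH2B was listed at 3 genes in siME2 (26.6%), a gain of 1 (16.2%). At gene ends, and at the genes' own starts (the latter chosen after seeing the data), AcH3 was missing in siME1 at 1 gene, Pcx (14.0% and 13.3%), AcH2B was listed in siControl at 0 (10.2% and 9.58%) and HDAC3 in siME1 at 0 (3.02% and 2.85%). HDAC3 in siControl was then at 0 genes (4.59%) and at 1 (4.65%). Measured by coverage at the summit in place of fold, the log2 ratio of AcH2B in siME2 changed sign at Pcx (0.17 to −0.0399) and Glud1 (0.02 to −0.0404), and so did their median (0.10 to −0.0402). The limiting depth is that of single summits, 5 to 43 fragments at the genes described, and differences of a few fragments were not detectable.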
